A study of Mus musculus with 12 samples.

Results

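Dexamethasone (DEX) was given to mice 6 h after iron sulfate (FeSO4), and the liver transcriptome was read 2 h later in 3 FeSO4/DEX and 3 FeSO4/PBS mice. These 6 of the 12 libraries of the series were chosen by their treatment labels alone, and every gene that could be tested was kept: 12872 of the 55414 genes in the count table. All 12 mice were female C57BL/6J and received 2 intraperitoneal injections. The first was 300 mg/kg FeSO4 or saline (NaCl), and the second, 6 h later, was 10 mg/kg DEX in phosphate-buffered saline (PBS) or PBS alone. Livers were taken 2 h after the second injection, 8 h after the first, so that the groups compared here shared the same iron dose and differed in DEX only. The 3 NaCl/DEX and 3 NaCl/PBS mice serve below as the reference for a DEX response without iron. The mice were 8 to 12 weeks old, carried no engineered allele and were not adrenalectomized. The comparison asks how far DEX still changes gene expression in a liver already exposed to a lethal dose of iron.

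DEX is a synthetic glucocorticoid that binds the glucocorticoid receptor (GR), a ligand-activated transcription factor. Bound GR enters the nucleus, occupies DNA elements built of inverted repeats, raises metabolic and anti-inflammatory genes in hepatocytes and lowers many cytokine-driven genes. Excess iron drives lipid peroxidation, activates heme oxygenase and acute-phase genes, and stresses the animal, whose adrenal glands then release corticosterone, the rodent's own GR ligand.

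The 6 libraries held between 16335651 and 21940354 counts. The liver label held: the 9 hepatocyte markers, from albumin to prothrombin, summed to 2793322 to 3238057 normalized counts per mouse, against 40.8 to 68.9 for the 3 cholangiocyte markers. Normalized counts are counts scaled to the mean library size by TMM (trimmed mean of M-values) factors. In bulk liver, fewer cells of a type and less RNA per cell cannot be told apart. One library stood apart. On the first principal component of the well-counted genes, which held 48.5% of the variance, FeSO4/PBS mouse 1 lay at 35 and the other 5 mice between -10.4 and -0.278. The median standard deviation of log2 normalized counts was 0.21 among FeSO4/PBS mice, 0.15 among FeSO4/DEX mice, and 0.12 and 0.13 among NaCl/PBS and NaCl/DEX mice. The main counts and the values that moved most with FeSO4/PBS mouse 1 are given with and without it.

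No gene passed a false discovery rate (FDR) of 0.05 for DEX in FeSO4 mice in edgeR's quasi-likelihood test (0% of 12872 genes; smallest FDR 0.727, for Klf10). At an unadjusted p of 0.05 or less, 234 genes were higher (1.82%) and 258 lower (2%) in DEX mice, 492 together. That threshold would give 644 of 12872 genes without any effect. DESeq2 called 2 genes higher, Ddit4 and Myc, and 1 lower, Klf10. The model over all 12 libraries called 0 of 13857 genes at FDR 0.05 and 900 at an unadjusted p of 0.05. For limma-voom the counts were 0 and 507 of 12872. Without FeSO4/PBS mouse 1, edgeR called Klf10 alone (FDR 0.00374), with 609 of 13049 genes at an unadjusted p of 0.05 or less. Leaving out other single mice gave from 266 of 13328 (FeSO4/DEX mouse 3) to 890 of 13034 genes (FeSO4/PBS mouse 2) at that p. The number of genes at this threshold thus moved with the model and with single mice. Without a low-count filter edgeR called 59 genes higher and 46 lower, in a fit that gave every gene 1 common quasi-dispersion. The 3 DEX mice lay wholly above or below the 3 PBS mice for 1189 genes (9.24%), 570 above and 619 below. Without any effect, such a split of 3 against 3 has a probability of 0.1 per gene.

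The size of effect that the data still allow can be stated gene by gene. For each gene the log2 fold change (LFC, DEX over PBS) was given with its 95% confidence interval, and a 2-fold change was called excluded when both bounds lay between -1 and 1. Such a gene is called bounded below. Among the 8601 genes with a mean raw count of at least 100, called well-counted below, a 2-fold change was excluded for 8195 (95.3%). Without FeSO4/PBS mouse 1 it was excluded for 8304 of 8546. An equivalence test against the same limits, adjusted over the well-counted genes, held for 8347. The median distance from the LFC to either bound was 0.38. The largest change still inside the interval had a median of 1.42-fold over these genes. The median LFC was 0.0073, and 90% of the well-counted genes had an LFC between -0.31 and 0.32. A 1.5-fold change was excluded for 5667 genes, 65.9% of those well-counted.

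Precision rose with the count and then levelled off. The share of genes with a 2-fold change excluded was 10.4% below a mean count of 30 (1977 genes), 64% from 30 to 100 and 92.4% from 100 to 300. It was 97.2% from 300 to 1000, 96.3% from 1000 to 3000 and 95.8% at 3000 or more, where the median distance to a bound (0.34) was no smaller than in the class below it (0.32). A 2-fold change was thus excluded for 1674 of the 4271 less-counted genes, and for the other less-counted genes a change of that size was neither detected nor excluded at this depth. Of the 406 well-counted genes without exclusion, 233 had an interval that reached past an LFC of 1, 158 one that reached past -1, and 15 one that reached past both. 27 of them had an LFC beyond 1 in size, 16 upward and 11 downward. For 1, Inhbe, the whole interval lay beyond -1 (LFC -2.15, and -1.62 without FeSO4/PBS mouse 1).

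**Figure D1:**
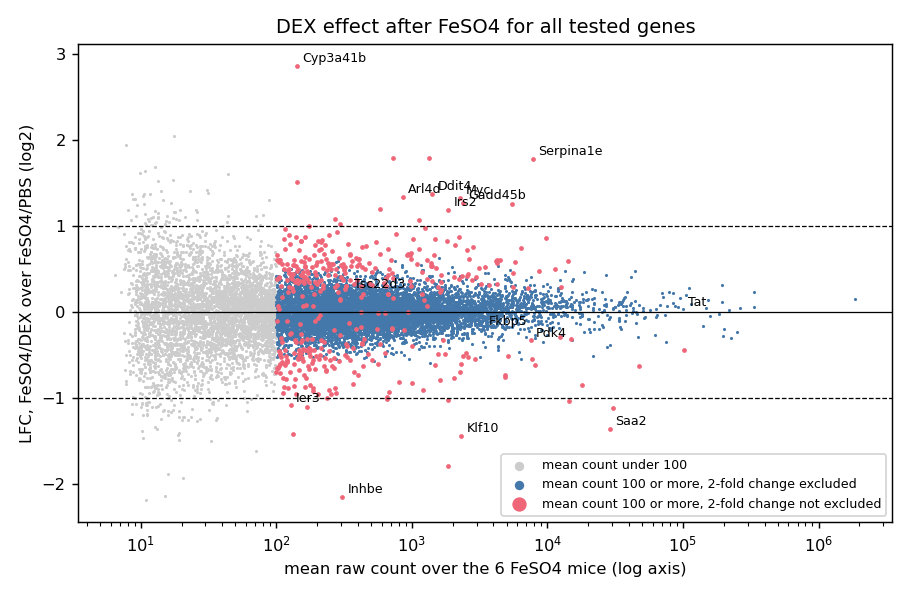
LFC of DEX in FeSO4 mice (FeSO4/DEX over FeSO4/PBS, log2, vertical axis) against the mean raw count over the 6 mice (log axis) for the 12872 tested genes, 1 point per gene. The dashed lines mark a 2-fold change. Blue points are the 8195 well-counted genes whose 95% interval lies within those lines, red points the 406 whose interval does not, and grey points the 4271 genes with a mean count under 100.

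The 3 genes that DESeq2 called were separated between the groups in every mouse. Klf10, a TGF-beta-inducible Krüppel-like repressor, had 2563, 4249 and 4507 normalized counts in the FeSO4/PBS mice and 1452, 1532 and 1183 in the FeSO4/DEX mice. All 3 DEX mice lay below all 3 PBS mice, with an LFC of -1.44 (95% interval -1.91 to -0.97, DESeq2 adjusted p = 1.8e-06). Ddit4, an inhibitor of mTORC1 and a direct GR target, had 875, 1138 and 708 in PBS mice and 1612, 3196 and 2278 in DEX mice, an LFC of 1.38 (0.82 to 1.94, DESeq2 adjusted p = 0.000554). Myc, the growth-promoting transcription factor, had 1002, 1966 and 1451 in PBS mice and 3393, 4678 and 3041 in DEX mice, an LFC of 1.33 (0.79 to 1.87, DESeq2 adjusted p = 0.000554). For both, the lowest DEX mouse was above the highest PBS mouse. Without FeSO4/PBS mouse 1 the LFC was -1.66 for Klf10, 1.35 for Ddit4 and 1.11 for Myc. In edgeR the FDR of Ddit4 and of Myc was 0.995.

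The same genes had changed with DEX in NaCl mice. There Klf10 fell from 818 ± 299 (mean ± SD, n = 3) to 229 ± 95.2 normalized counts (LFC -1.83, edgeR FDR 0.00331), Ddit4 rose from 99.6 ± 4.08 to 3028 ± 194 (LFC 4.93, edgeR FDR 9.25e-09) and Myc rose from 124 ± 57.9 to 636 ± 15.5 (LFC 2.37, edgeR FDR 0.000217). The difference between both responses passed the interaction test for Ddit4, by -3.55 on the log2 scale (edgeR FDR 1.86e-05), and did not for Klf10 (edgeR FDR 0.661) or Myc (edgeR FDR 0.156). The FeSO4/PBS mice held more Klf10, Ddit4 and Myc than the NaCl/PBS mice in mean, and the FeSO4/DEX mean of Klf10 (1389) remained above that of NaCl/PBS mice.

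**Figure D2:**
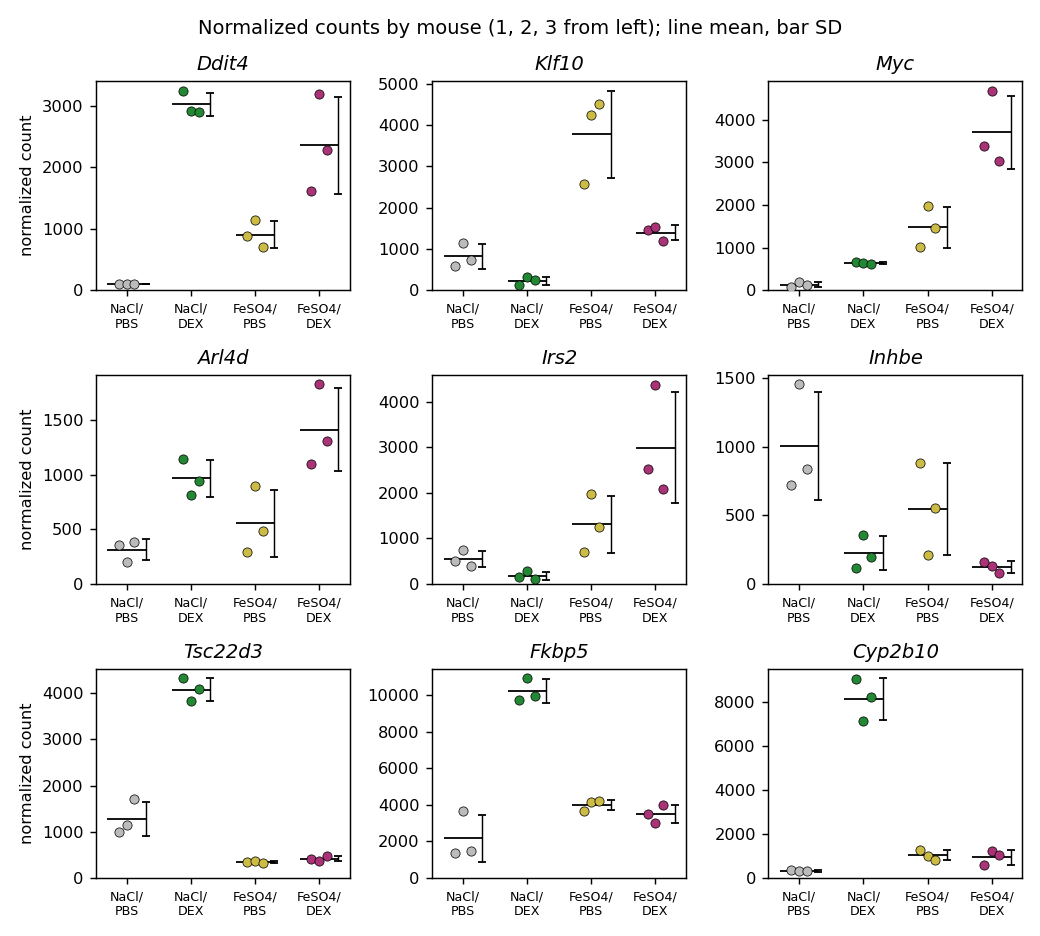
Normalized counts of 9 genes in each of the 12 mice, 3 per group (points, mice 1 to 3 from left), with the group mean (line) and SD (bar). The groups of FeSO4 mice do not overlap for Ddit4, Klf10, Myc, Arl4d, Irs2 and Inhbe and overlap for Tsc22d3, Fkbp5 and Cyp2b10, whose NaCl/DEX mice lie above all other mice.

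By size, the largest upward differences among well-counted genes other than Gm and Rik genes, with groups that did not overlap, were those of Serpina1e, Ddit4, Arl4d, Myc and Gadd45b. Serpina1e, a liver-secreted serine protease inhibitor, had 5552, 2105 and 4109 in PBS mice and 14771, 6362 and 19457 in DEX mice (LFC 1.79, 0.88 to 2.69). It belongs to a cluster of near-identical Serpina1 copies, so its reads may be split with them. Arl4d, a small GTPase that DEX raises in liver, had 292, 891 and 482 in PBS and 1092, 1831 and 1309 in DEX mice (LFC 1.34, 0.57 to 2.12). Gadd45b, a stress sensor upstream of p38 and JNK, had 383, 2521 and 1908 in PBS and 3358, 4090.4 and 4188 in DEX mice (LFC 1.27, 0.17 to 2.37). FeSO4/PBS mouse 1 was the lowest mouse for Arl4d and Gadd45b, and without it the LFC came to 1.03 and 0.81.

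The largest downward differences were those of Inhbe, Klf10, Ier3, Syt12 and Runx1. Inhbe, the hepatocyte subunit of activin E, had 881, 209.6 and 552 in PBS mice and 159, 133 and 76.1 in DEX mice, an LFC of -2.15 (-3.16 to -1.15). FeSO4/PBS mouse 1 was the highest mouse, and without it the LFC came to -1.62. In NaCl mice the LFC of Inhbe was -2.15 (edgeR FDR 0.00293), from 1004 ± 395 to 225 ± 123. Ier3, an immediate early regulator of NF-kappaB and ERK signaling, had 242, 143 and 196 in PBS and 75.4, 128 and 72.5 in DEX mice (LFC -1.09, -1.71 to -0.46), beside a fall in NaCl mice (LFC -1.97, edgeR FDR 0.0396). Runx1, a hematopoietic transcription factor, had 203, 138 and 143 in PBS and 80.2, 92.4 and 79.7 in DEX mice (LFC -0.94, -1.44 to -0.45). Syt12, a synaptotagmin, had 1519, 678 and 664 in PBS and 505, 527 and 413 in DEX mice, and its LFC of -0.99 came to -0.48 without FeSO4/PBS mouse 1. None of these 5 genes passed FDR 0.05 in edgeR with all 6 mice, and DESeq2 called Klf10 alone among them.

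The genes that define a DEX response were examined next. A list of 28 classic GR targets, all tested, comprised Tsc22d3, Per1, Fkbp5, Tat and other genes taken as glucocorticoid targets. In NaCl mice DEX raised 21 of the 28 and lowered 2 at FDR 0.05 in edgeR, with a median LFC of 1.60, beside 1212 raised (9.83%) and 1385 lowered (11.2%) among the 12334 genes tested in both settings. In FeSO4 mice the median LFC of the same genes was 0.048, beside 0.0045 over all tested genes, with 15 above 0 and 13 below, and it came to -0.037 without FeSO4/PBS mouse 1. A 2-fold change was excluded for 19 of the 25 well-counted members, beside 95.3% of all well-counted genes, and for 13 of the 19 well-counted members that DEX had raised in NaCl mice. The difference between both responses passed the interaction test for 12, beside 6.18% of all genes.

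Tsc22d3 (GILZ), a leucine zipper protein that mediates anti-inflammatory GR effects, had 351, 371 and 330.3 normalized counts in FeSO4/PBS mice and 407, 358 and 478 in FeSO4/DEX mice. The groups overlapped and the LFC was 0.24 (-0.10 to 0.58), whereas DEX raised it from 1276 ± 372 to 4081 ± 254 in NaCl mice. Both FeSO4 groups thus lay below the NaCl/PBS mice. Fkbp5, the co-chaperone that restrains GR, had 3679, 4122 and 4176 in PBS mice and 3480.1, 3021 and 4004 in DEX mice (LFC -0.19, -0.51 to 0.13), against 2158 ± 1297 and 10203 ± 651 in NaCl mice. Tat, tyrosine aminotransferase, had 119081, 124474 and 87758 in PBS mice and 86796, 140309 and 112105 in DEX mice (LFC 0.034, -0.43 to 0.50). Its level in both FeSO4 groups was near that of the NaCl/DEX mice (92993 ± 8842) and above that of the NaCl/PBS mice (19825 ± 2595). Per1, a clock gene that glucocorticoids induce in many tissues, passed the test in neither setting, with an LFC of -0.079 (-0.47 to 0.32) in FeSO4 mice and -0.018 (-0.31 to 0.28) in NaCl mice.

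Cdkn1a, the CDK inhibitor p21, had the largest NaCl response among the well-counted members. DEX raised it from 56.8 ± 19.3 to 2311 ± 399 in NaCl mice (LFC 5.37, edgeR FDR 9.6e-07), while the FeSO4/PBS mice held 9852, 8603 and 9167 and the FeSO4/DEX mice 8435, 9544 and 8176. The LFC of -0.079 had an interval of -0.37 to 0.21, which excludes even a 1.5-fold change. Among the other well-counted members with exclusion were Nfkbia, the NF-kappaB inhibitor (0.15, -0.19 to 0.50), Dusp1, the MAPK phosphatase (-0.022, -0.41 to 0.36), Igfbp1, the insulin-like growth factor binding protein (0.40, -0.048 to 0.85), Mfsd2a, a lysolipid transporter (0.19, -0.19 to 0.58), Errfi1, an EGF receptor inhibitor (0.13, -0.20 to 0.46), and Angptl4, a lipoprotein lipase inhibitor (-0.027, -0.58 to 0.53). A 2-fold change was excluded likewise for Klf9, Zbtb16, Cebpd, Rasd1, Sds, Bcl6, Mertk and Tfcp2l1, whose LFC lay between -0.23 (Rasd1) and 0.19 (Zbtb16). Not all of these had risen with DEX in NaCl mice. There Zbtb16, Cebpd and Sds were raised at FDR 0.05 in edgeR (LFC 1.02, 1.49 and 1.34). Mertk (LFC -0.34, edgeR FDR 0.0468) and Tfcp2l1 (LFC -0.44, edgeR FDR 0.0487) were lowered. Klf9, Bcl6 and Rasd1 did not pass in NaCl mice (LFC 0.15, -0.76 and 1.59).

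For 6 well-counted members a 2-fold change was not excluded: Ddit4, Arl4d and Gadd45b above, and Sgk1, Lcn2 and Pdk4. Sgk1, a kinase that regulates ion transport, had 781, 1224 and 1326 in PBS mice and 1979.8, 1142 and 1494 in DEX mice (LFC 0.47), and its upper bound reached the limit (-0.057 to 1.0). Lcn2, the siderophore-binding acute-phase protein, had 44706, 13900.2 and 16689.6 in PBS and 15574, 15425 and 10682 in DEX mice. Its LFC of -0.85 rested on FeSO4/PBS mouse 1 and came to -0.14 without it. Pdk4, the kinase that shuts pyruvate dehydrogenase, had 515, 14233 and 14043 in PBS and 7447, 10955 and 4539 in DEX mice, and the interval (-2.16 to 1.51) covered large changes both ways. Sult1e1, Hif3a and Fam107a had mean counts under 100. The intervals of Sult1e1, the estrogen sulfotransferase (-0.65, -2.37 to 1.08), and Hif3a, an inhibitory HIF subunit (-0.048, -1.24 to 1.15), were wide, and only the interval of Fam107a, an actin-associated stress protein, lay within the 2-fold limits (-0.89 to 0.85). Fam107a had 2.03 ± 2.12 normalized counts in NaCl/PBS mice, 1085 ± 118 in NaCl/DEX mice, 28.2, 44.8 and 28.1 in the FeSO4/PBS mice and 24.2, 25.8 and 49.9 in the FeSO4/DEX mice.

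**Figure D3:**
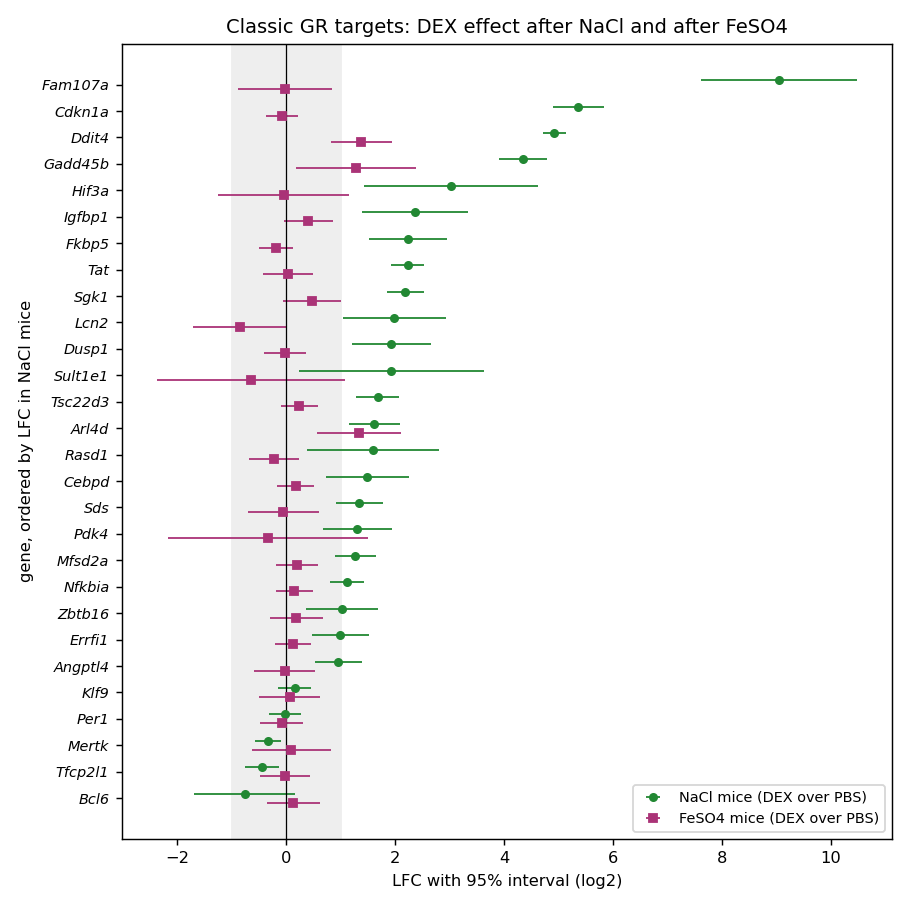
LFC of DEX over PBS (log2) with its 95% interval for the 28 classic GR targets, in NaCl mice (green circles) and in FeSO4 mice (purple squares), 3 mice per group, ordered by the LFC in NaCl mice. The grey band marks changes under 2-fold. The FeSO4 values sit around 0 (median 0.048) with Ddit4, Arl4d and Gadd45b above 1, and the NaCl values reach from -0.76 to 9.05. The NaCl value of Fam107a is set against 2.03 ± 2.12 normalized counts and depends on the prior count of the fit.

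The DNA element that GR binds can be shown beside these values. A full palindrome, GNACANNNTGTNC, which reads alike on both strands, was searched in the RefSeq promoters (GRCm38.p6, 250 bases before to 50 after each start). It was found for 145 of 27025 genes (0.537%), for 2 of the 23 classic GR targets that matched by symbol, for 7 of 292 tested genes that DEX raised over 2-fold in NaCl mice and for 0 of 329 that it lowered. Of the genes named here, 3 with the element before their start are shown 5′ to 3′: Sgk1, Fam107a and the metallothionein Mt1. The palindrome is in capitals. These 3 are examples, and the number of named genes with the element was not established. They are printed because each carries the element close to its start, and the LFC in FeSO4 mice was not a criterion of this search.
Sgk1: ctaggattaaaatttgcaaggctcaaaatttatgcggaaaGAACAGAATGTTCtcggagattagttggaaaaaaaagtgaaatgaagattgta
Fam107a: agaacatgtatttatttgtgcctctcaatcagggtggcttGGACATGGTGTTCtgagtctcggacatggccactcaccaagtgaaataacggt
Mt1: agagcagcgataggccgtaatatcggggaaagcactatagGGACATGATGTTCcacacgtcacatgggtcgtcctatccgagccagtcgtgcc
The stretches lie at chr10:21993662-21993754 (plus strand), chr14:8309845-8309937 (minus strand) and chr8:94178955-94179047 (plus strand) of GRCm38.p6, upstream of the transcription start, with the first base of the palindrome at -188, -118 and -94 relative to it. In NaCl mice DEX raised all 3, with an LFC of 2.19 (edgeR FDR 1.96e-05) for Sgk1, 1.19 (edgeR FDR 0.0131) for Mt1 and, for Fam107a, the values above (edgeR FDR 2.43e-07). In FeSO4 mice the LFC was 0.47, -0.065 and -0.024 in turn. A match of letters is a description and not a measured binding site.

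Beyond the classic targets, 977 of 13158 genes (7.43%) changed over 2-fold with DEX in NaCl mice at FDR 0.05, and 830 of them were tested in FeSO4 mice. These genes were chosen on libraries that the FeSO4 comparison does not use. A 2-fold change in FeSO4 mice was excluded for 479 of the 830, and for 356 of the 452 that were well-counted (78.8%, beside 95.3% of all well-counted genes). Without FeSO4/PBS mouse 1 it was excluded for 391 of 450. For the 293 well-counted genes raised in NaCl mice, the LFC had a median of 1.35 without iron and 0.094 with it. For the 159 lowered ones the medians were -1.34 and 0.043. 66 of the 830 had an unadjusted p of 0.05 or less in FeSO4 mice, 44 in the same direction as in NaCl mice and 22 in the opposite one, beside 492 of all 12872 tested genes.

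The difference between both DEX responses was tested itself over all 12 libraries. It passed FDR 0.05 in edgeR for 857 of 13857 genes (6.18%), and for 456 of the 830 responsive genes. The latter were chosen for a large LFC in NaCl mice, which enters the difference, so their share is not independent of the choice.

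The level from which DEX started differed among the responsive genes. Of the 293 well-counted genes raised in NaCl mice, 120 stood in FeSO4/PBS mice at or above their mean in NaCl/DEX mice, 126 stood between the NaCl/PBS and NaCl/DEX means, and 47 stood at or below the NaCl/PBS mean. Exclusion of a 2-fold change was seen in all 3 classes, for 95, 103 and 35 genes. Of the 159 lowered in NaCl mice, 36 stood at or below the NaCl/DEX mean, 57 between both and 66 at or above the NaCl/PBS mean, with exclusion for 28, 49 and 46. Cdkn1a belonged to the first class of raised genes, Fkbp5 to the second and Tsc22d3 to the third.

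Among well-counted genes with exclusion, Gm and Rik genes aside, the largest rises in NaCl mice came from Cdkn1a, Cyp2b10, Plin5, Rbbp8 and Mrap. Cyp2b10, a drug-metabolizing P450 under the control of CAR, had 1285, 1002 and 803 normalized counts in FeSO4/PBS and 562, 1199 and 1014 in FeSO4/DEX mice (LFC -0.16, -0.75 to 0.43), against 312 ± 31.7 and 8137 ± 948 in NaCl mice. Plin5, a lipid droplet coat protein, had 2893, 3329.6 and 3341 in PBS and 3043, 3742 and 3390.1 in DEX mice (LFC 0.089, -0.21 to 0.39), against 468 ± 159 and 4555 ± 473. Rbbp8, a DNA end resection factor, had an LFC of -0.043 (-0.47 to 0.38) in FeSO4 mice and 3.05 in NaCl mice. Mrap, the accessory protein of the ACTH receptor, had -0.13 (-0.52 to 0.26) and 2.84.

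The largest falls in NaCl mice among such genes came from Junb, Tnfaip2, Socs3, Id2 and Rnf152. Junb, an AP-1 subunit, went from 1227 ± 757 to 123 ± 22.9 in NaCl mice and had 6489, 6004 and 4153 in FeSO4/PBS and 4744, 6044 and 3975 in FeSO4/DEX mice (LFC -0.17, -0.63 to 0.28). Socs3, the feedback inhibitor of IL-6 signaling, went from 458 ± 419 to 54.1 ± 17.3 in NaCl mice and had 4443, 4277 and 3732 in FeSO4/PBS and 3798, 4468 and 2266 in FeSO4/DEX mice (LFC -0.24, -0.74 to 0.25). Tnfaip2, a TNF-induced protein of membrane protrusions, Id2, a dominant-negative helix-loop-helix factor, and Rnf152, a lysosomal ubiquitin ligase, had LFCs of -0.17, -0.20 and 0.27 in FeSO4 mice, against -3.08, -2.88 and -2.60 in NaCl mice. Junb, Socs3 and Id2 stood above their NaCl/PBS level in both FeSO4 groups, Tnfaip2 between its NaCl/DEX and NaCl/PBS levels, and Rnf152 near its NaCl/DEX level.

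The widest intervals among well-counted responsive genes belonged to Cyp3a41b, Pdk4, Gm7694, Gm43305 and Cyp26b1, for which the FeSO4 data allow large changes. Cyp3a41b, a female-biased P450 with near-identical copies, had 17.1, 46.8 and 40.8 in PBS mice and 619, 16.3 and 118 in DEX mice, so that its LFC of 2.87 (0.74 to 4.99) came largely from DEX mouse 1. Without that mouse the LFC of Cyp3a41b was 0.96. Cyp26b1, which degrades retinoic acid, had 47.4, 337 and 61.2 in PBS and 372, 102 and 113 in DEX mice (LFC 0.40, -1.20 to 2.01). Gm43305, a lncRNA gene, had 6992, 1166 and 835 in PBS and 905, 295 and 1388 in DEX mice, and Gm7694, a predicted protein-coding gene, 2125, 285 and 508 in PBS and 214, 1047 and 194 in DEX mice. In both, FeSO4/PBS mouse 1 was the highest, and their LFCs of -1.80 and -1.02 came to -0.21 and 0.28 without it.

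**Figure D4:**
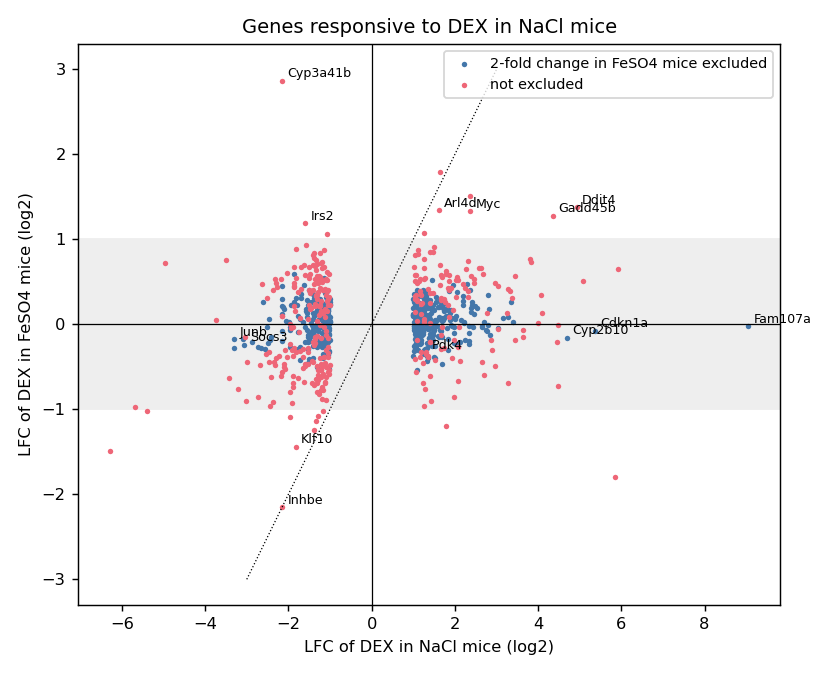
LFC of DEX in FeSO4 mice (vertical) against the LFC of DEX in NaCl mice (horizontal), both log2, for the 830 genes that changed over 2-fold in NaCl mice at FDR 0.05. Blue points are the 479 genes for which a 2-fold change in FeSO4 mice was excluded. The grey band marks less than 2-fold and the dotted line equal responses. Inhbe lies on that line and most genes lie along the horizontal axis.

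Gene families were then described over 68 lists, each mouse by the median deviation of a family's genes from their 6-mouse means on the log2 scale, called the family score. Family medians of the LFC ran from -0.41 to 0.69, and 48 of 68 lay within 0.1 of 0. The scores of DEX and PBS mice overlapped in 61 families. They did not overlap in 5 with lower scores in DEX mice (neutrophil markers, the interleukin-1 pathway, NF-kappaB subunits, splicing factors and Zfp zinc finger genes) and 2 with higher ones (p53 targets and hepatocyte markers), beside the 9.24% of single genes that did not overlap. The range of the score over the 6 mice had a median of 0.36 over the families, and the difference between the group means a median of 0.067 in size. FeSO4/PBS mouse 1 was the mouse farthest from the median in 31 families, and without it the median LFC changed sign in 25. Leaving out each of the 6 mice in turn changed the sign of the median LFC at least once in 40 of the 68 families.

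**Figure D5:**
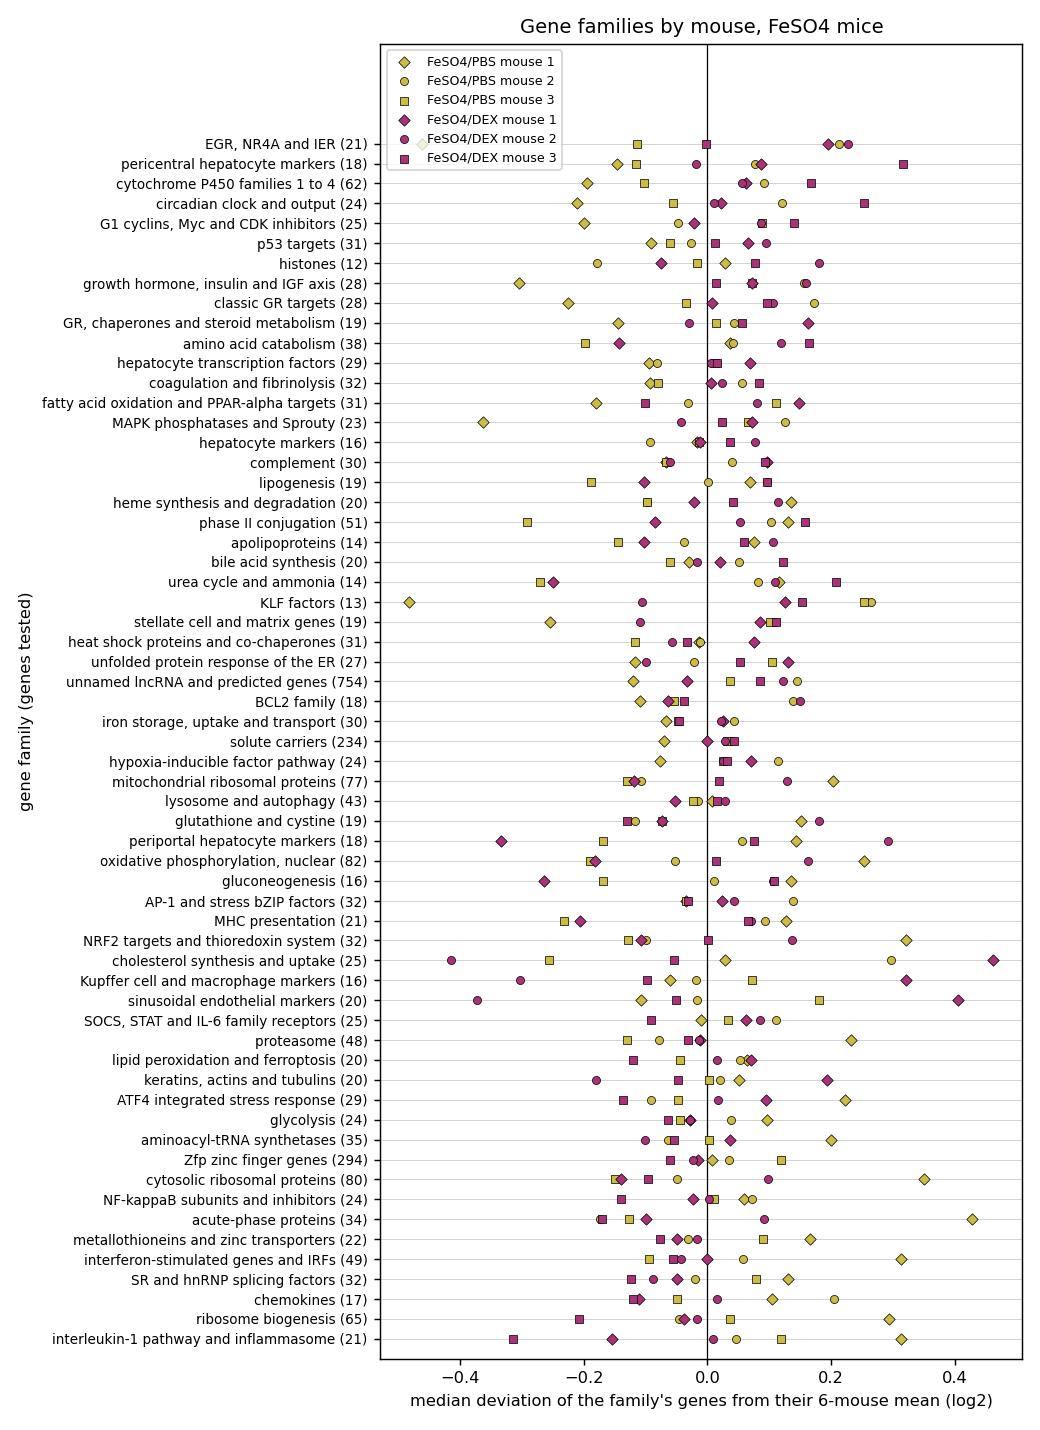
Family scores (median deviation of a family's genes from their 6-mouse mean, log2) of the 3 FeSO4/PBS mice (yellow) and 3 FeSO4/DEX mice (purple) for the 61 families with at least 10 tested genes, ordered by the difference between the group means. The diamonds of FeSO4/PBS mouse 1 form the left edge for immediate early and KLF genes and the right edge for acute-phase and ribosomal protein genes, and colors mix in most families.

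The receptor machinery itself was examined next. Of 19 genes for GR, its chaperones, corepressors and steroid-metabolizing enzymes, all 17 well-counted ones excluded a 2-fold change (95.3% of all well-counted genes did). Nr3c1, which encodes GR, had 796, 1218 and 1083 normalized counts in PBS mice and 1247, 1049 and 1228 in DEX mice (LFC 0.19, -0.19 to 0.56). The LFC was -0.069 (-0.43 to 0.29) for the chaperone Hsp90aa1, 0.25 (-0.10 to 0.60) for the co-chaperone Fkbp4, 0.13 (-0.23 to 0.48) for the corepressor Ncor1 and 0.075 (-0.23 to 0.38) for Hsd11b1, which regenerates corticosterone. Serpina6, which encodes the corticosteroid-binding globulin of plasma, was the highest at 0.41 (0.021 to 0.80) and Hspa1b, an inducible heat shock protein counted at under 20 per mouse, the lowest at -0.27 (-1.65 to 1.10).

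In the glucose pathways, a 2-fold change was excluded for 13 of 15 well-counted gluconeogenic genes, beside 95.3% of all well-counted genes. DEX had raised 9 of the 16 tested in NaCl mice, beside 9.83% of all genes. Pck1, the rate-limiting cytosolic enzyme, had 3377, 14811 and 6516 in FeSO4/PBS and 6867, 14790.1 and 12858 in FeSO4/DEX mice (LFC 0.48, -0.54 to 1.51), and every one of these mice was below the NaCl/PBS mean (46410 ± 2525). Pck2, its mitochondrial form, was the lowest (-0.34, -1.06 to 0.37). G6pc1, glucose-6-phosphatase, had an LFC of -0.0069 (-0.62 to 0.60), Fbp1 one of 0.12 (-0.22 to 0.45) and Pcx, pyruvate carboxylase, one of -0.042 (-0.31 to 0.23), while the coactivator Ppargc1a left a wide interval (-1.31 to 1.05). Of 25 well-counted genes of the growth hormone, insulin and IGF axis, 14 excluded a 2-fold change. Irs2, the hepatic insulin receptor substrate, had 702, 1964 and 1256 in PBS mice and 2518, 4374 and 2073 in DEX mice, all 3 DEX mice above all PBS mice (LFC 1.19, 0.39 to 2.0). In NaCl mice DEX lowered Irs2 from 548 ± 177 to 179.6 ± 87.3, and the responses differed by 2.79 on the log2 scale (edgeR FDR 0.00905). Irs1 showed the same contrast in direction, with 63.5, 144 and 86.7 in FeSO4/PBS and 140.2, 175 and 177 in FeSO4/DEX mice (LFC 0.74, 0.086 to 1.39). Its groups overlapped, and without FeSO4/PBS mouse 1, the lowest, the LFC came to 0.49. In NaCl mice the LFC of Irs1 was -1.20, and the responses differed by 1.94 (edgeR FDR 0.0194). Insr, the insulin receptor, and Igf1 had LFCs near 0 (0.081, -0.22 to 0.38, and 0.12, -0.22 to 0.46).

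Immediate early genes, which respond to stress and growth signals within minutes, had a median of 0.36 in the EGR, NR4A and IER list, with 15 of 21 LFCs above 0. The scores of the DEX mice were 0.19, 0.23 and -0.0028 and those of the PBS mice -0.46, 0.21 and -0.11, and the median came to 0.11 without FeSO4/PBS mouse 1, the lowest. Egr1, a serum-response zinc finger factor, had 1079, 3231 and 1450.1 in PBS and 3577, 1978 and 2057 in DEX mice (LFC 0.40, -0.44 to 1.24), and the orphan receptor Nr4a1 87.7, 663 and 351 in PBS and 508, 492 and 624 in DEX mice. Fos was at 179, 667 and 299.7 in PBS and 1362, 399.7 and 861 in DEX mice (LFC 1.20, 0.10 to 2.29; 0.85 without that mouse), Jun at an LFC of 0.60 (0.018 to 1.18) and Atf3, the stress-induced factor, at 0.15 (-0.91 to 1.20). For Egr1, Nr4a1 and Fos the groups overlapped. Fosl1, another AP-1 subunit, was lower in all DEX mice, with 232, 289.9 and 270.4 in PBS and 165, 185 and 149.8 in DEX mice (LFC -0.66, -1.05 to -0.28). Cebpb, which DEX raised in NaCl mice (LFC 1.30, edgeR FDR 0.000112), had 0.19 (-0.20 to 0.58) in FeSO4 mice. Ier2 had 0.50 (0.017 to 0.97). In the KLF list, Klf15, a GR-driven factor of amino acid use, had 0.32 (-0.27 to 0.91) and Klf3, the highest, 0.32 (-0.40 to 1.05).

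Clock genes had a median of 0.17 over 24 genes, which came to 0.10 without FeSO4/PBS mouse 1 and to -0.0067 without FeSO4/DEX mouse 3. Npas2, a partner of the clock activator, had 27.2, 64.1 and 82.9 in PBS and 128, 141 and 79.7 in DEX mice (LFC 1.01, 0.16 to 1.86), and Bmal1 219.8, 370.3 and 517 in PBS and 529, 647 and 513 in DEX mice (LFC 0.61, 0.025 to 1.20). Nr1d1 (REV-ERB-alpha), which DEX lowered in NaCl mice (LFC -2.53, edgeR FDR 0.000582), had an LFC of -0.033 (-0.60 to 0.53) after iron. Dbp, a clock output factor, was at 81.7, 70.2 and 75.2 in FeSO4/PBS and 37.7, 47.6 and 128 in FeSO4/DEX mice against 2396 ± 480.3 in NaCl/PBS mice, and Per2 left a wide interval (-0.52 to 1.19), while Cry1, a clock repressor, had -0.30 (-0.80 to 0.20).

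No iron-handling gene passed the test. Of 28 well-counted genes for iron storage, uptake and transport, 26 excluded a 2-fold change (95.3% of all well-counted genes did), and their median LFC was 0.0083. The ferritin subunits Fth1 and Ftl1 had LFCs of -0.29 (-0.79 to 0.22) and -0.20 (-0.71 to 0.30), the plasma carrier Trf 0.046 (-0.26 to 0.35), the exporter Slc40a1 -0.069 (-0.39 to 0.25) and the hormone hepcidin, Hamp, -0.089 (-0.65 to 0.47). Without FeSO4/PBS mouse 1 the LFC came to 0.026 for Fth1, 0.10 for Ftl1 and 0.27 for Hamp. Tfrc, the transferrin receptor, was raised by DEX in NaCl mice (LFC 1.73, edgeR FDR 0.000782) and had 0.20 (-0.26 to 0.65) in FeSO4 mice. Steap4, an inflammation-driven ferrireductase, was the lowest with 41349, 11221 and 10475 in PBS and 9578, 14335 and 6828 in DEX mice, where FeSO4/PBS mouse 1 stood alone and the LFC went from -1.04 to -0.082 without it. Heph, a multicopper ferroxidase counted at under 100, was the highest (1.17, 0.036 to 2.30). Slc39a14, which imports non-transferrin-bound iron, had 37326, 36814 and 36782 in PBS mice and 24138, 34430.5 and 26446 in DEX mice, all 3 lower (LFC -0.38, -0.74 to -0.031), against an LFC of 0.53 in NaCl mice (difference -0.91, edgeR FDR 0.0431).

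Among heme, metal and oxidant defense genes, Hmox1, heme oxygenase, was at 40309, 29684 and 39666 in PBS mice and 38251, 44260.2 and 33612 in DEX mice (LFC 0.083, -0.30 to 0.46), against 563 ± 199 in NaCl/PBS mice. Alas1, the rate-limiting heme synthesis enzyme, which DEX raised from 8314 ± 1459 to 32612 ± 4171 in NaCl mice, had 18804, 13409 and 14627 in PBS and 15112, 15619 and 15012 in DEX mice (LFC -0.034, -0.38 to 0.31), and the responses differed by -2.01 (edgeR FDR 0.000156). Flvcr2, a membrane transporter at the upper end of the heme list, had 0.65 (-0.11 to 1.42). Metallothioneins Mt1 and Mt2, metal-binding proteins, were at -0.065 (-0.55 to 0.42) and 0.019 (-0.38 to 0.42), and the zinc importers Slc39a10 and Slc39a8 stood at the ends of their list with -0.51 and 0.22. Slc7a11, the cystine importer that feeds glutathione synthesis, counted at under 100, had 228, 64.1 and 53.6 in PBS mice and 18.4, 69.3 and 28.5 in DEX mice. Its LFC of -1.61 (-3.0 to -0.23) came to -0.64 without FeSO4/PBS mouse 1. The NRF2 targets Nqo1, Txnrd1 and Gclc had LFCs of -0.21 (-0.95 to 0.53), -0.35 (-0.82 to 0.12) and -0.10 (-0.71 to 0.50), and Aox1, aldehyde oxidase, at the upper end of the NRF2 list, 0.31 (-0.03 to 0.65). Cbr3, a carbonyl reductase at its lower end, went from -0.93 to 0.54 without that mouse. Without it Nqo1, Txnrd1 and Gclc came to 0.38, -0.066 and 0.25. Acsl4, which loads membranes with oxidizable lipid, had 0.035 (-0.52 to 0.59). Of 30 well-counted NRF2 and thioredoxin genes, 25 excluded a 2-fold change, and of 15 glutathione and cystine genes all did, beside 95.3% of all well-counted genes.

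The summed level of neutrophil markers was lower in DEX mice than in PBS mice after iron, without single genes passing the test. The 6 neutrophil markers summed to 693 to 867 in PBS mice and 519.6 to 651 in DEX mice, without overlap. S100a9 had the highest count of the 6 in each of these mice and was the only one whose groups did not overlap. For S100a8, Ly6g, Retnlg, Mmp8 and Cxcr2 the groups overlapped. S100a9, a calprotectin subunit, had 408, 357 and 315 in PBS mice and 258, 258 and 225 in DEX mice (LFC -0.54, -0.90 to -0.19), Ngp, a granule protein, 32.3, 22.4 and 35.7 in PBS and 12.6, 17.7 and 8.32 in DEX mice, and S100a8 an LFC of -0.14 (-0.63 to 0.34). All 8 tested genes of the wider neutrophil list had an LFC below 0 (median -0.41), beside 6318 of 12872 over all genes. Of these 8, 2 were lower at an unadjusted p of 0.05 (beside 2% of all genes). The groups did not overlap for 3 of the 8 (beside 9.24% of all genes), and none of the 8 passed FDR 0.05 in edgeR. In NaCl mice the 6 markers summed to 50.8 to 189.8. Their part in the inflammatory values that follow was not tested.

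Several inflammatory families had medians below 0. The interleukin-1 list had a median of -0.19 over 21 genes, with 16 below 0. Its scores were -0.15, 0.0085 and -0.31 in DEX mice and 0.31, 0.046 and 0.12 in PBS mice, and the median came to -0.052 without FeSO4/PBS mouse 1. Il1a, its other agonist, was the highest of the list (0.48, -0.071 to 1.03). Il1b, the cytokine, had 97.8, 127 and 90.6 in PBS mice and 42.5, 77.5 and 42.8 in DEX mice (LFC -0.97, -1.63 to -0.31), all 3 DEX mice lower. Il1rn, the secreted IL-1 receptor antagonist, had 289, 366 and 238 in PBS and 105, 256 and 103 in DEX mice (LFC -0.96, -1.71 to -0.21), opposite to its rise in NaCl mice (LFC 1.26, edgeR FDR 0.00489; difference -2.23, edgeR FDR 0.0108). Il1r1, the signaling receptor, also differed between the settings, with -0.40 (-0.83 to 0.037) against 1.35 (edgeR FDR of the difference 0.0159).

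Of 17 chemokine genes tested, 2 were lower at an unadjusted p of 0.05 (beside 2% of all genes) and none higher. Ccl2, the monocyte attractant, had 35.3, 35.6 and 20.4 in PBS mice and 9.67, 15 and 8.32 in DEX mice (LFC -1.49, -2.44 to -0.53), and Cxcl1, the neutrophil attractant, 4317, 2301 and 1502 in PBS and 1003, 1792 and 1210.5 in DEX mice (LFC -1.02, -1.79 to -0.25; -0.51 without FeSO4/PBS mouse 1). Cxcl2 had -0.10 (-0.77 to 0.58), and Cxcl13, a B cell attractant, was the highest (0.83, -0.05 to 1.70). Tnfaip3 (A20), a deubiquitinase that ends NF-kappaB signaling, had 387, 429 and 256 in PBS and 233, 266 and 183 in DEX mice (LFC -0.66, -1.15 to -0.16), and the inhibitor genes Nfkbie (-0.93) and Nfkbiz (0.30) were its lowest and highest. Their list had a median of -0.13, with 3 of 24 lower at an unadjusted p of 0.05, and the median came to -0.055 without FeSO4/PBS mouse 1, -0.21 without FeSO4/PBS mouse 3 and -0.20 without FeSO4/DEX mouse 2. The subunits Rela and Nfkb1 were at -0.16 (-0.45 to 0.13) and 0.08 (-0.21 to 0.37). In the IL-6 pathway, Stat3, Il6st and Il6ra had -0.18 (-0.51 to 0.14), -0.064 (-0.38 to 0.25) and 0.088 (-0.21 to 0.38). Lifr, the leukemia inhibitory factor receptor, was the highest (0.49, 0.084 to 0.89). Socs1, a cytokine signaling inhibitor at the lower end of that list, went from -1.05 to -0.26 without FeSO4/PBS mouse 1. DEX had raised Il6ra, the ligand-binding chain, in NaCl mice (LFC 1.19, edgeR FDR 0.000129).

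Among acute-phase proteins, several differences rested on 1 library. Saa1 and Saa2, the serum amyloid A genes, which are near-identical copies, had 101815, 17532 and 14363 and 106481, 14788 and 11839 normalized counts in the PBS mice, against 18498, 27151 and 15988 and 16416, 23018 and 12483 in the DEX mice. FeSO4/PBS mouse 1 held several times the level of every other mouse, and the LFC of Saa1 went from -1.12 to 0.37 and that of Saa2 from -1.36 to 0.38 without it. The same mouse was highest for Hp, the hemoglobin scavenger haptoglobin (-0.44 with and 0.15 without it), and Orm1, orosomucoid (-0.41 and -0.023), and lowest for Crp (0.32 and 0.047). Over 34 well-counted acute-phase genes, 26 excluded a 2-fold change, beside 95.3% of all well-counted genes. Interferon-stimulated genes, of which DEX lowered 23 of 49 in NaCl mice (beside 11.2% of all genes), had a median of -0.057 in FeSO4 mice against -0.47 in NaCl mice, and 34 of 35 well-counted ones excluded a 2-fold change. DEX lowered 9 of 21 MHC presentation genes in NaCl mice. Their medians were -0.079 in FeSO4 mice (0.019 without FeSO4/PBS mouse 1) and -0.55 in NaCl mice, with exclusion for all 18 well-counted members.

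In 22 of the 68 families all well-counted members were bounded, beside 95.3% of all well-counted genes. Every well-counted member excluded a 2-fold change among 37 amino acid catabolism genes, 13 urea cycle genes, 13 apolipoproteins, 28 complement genes, 79 nuclear genes of oxidative phosphorylation and 41 lysosome and autophagy genes. Among P450 genes of families 1 to 4, 49 of 62 LFCs were above 0, beside 6554 of 12872 over all genes, and the median was 0.16. Cyp3a11, the main drug-metabolizing P450 of mouse liver, which DEX raised in NaCl mice (LFC 1.05, edgeR FDR 0.000395), had 0.18 (-0.23 to 0.59) in FeSO4 mice. Cyp1a2 and Cyp2e1 were at 0.11 (-0.43 to 0.65) and 0.23 (-0.18 to 0.65). Cyp3a16, a form known from fetal liver, with near-identical copies, had 276, 1201 and 320.1 in PBS and 5273, 223 and 757 in DEX mice, the highest LFC of the list (1.80), which came from DEX mouse 1.

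In stress-response families, beside the same 95.3%, a 2-fold change was excluded for 26 of 26 well-counted genes of the unfolded protein response, 26 of 27 heat shock and co-chaperone genes, 18 of 18 genes of the hypoxia-inducible factor pathway and 16 of 21 ATF4 genes, the arm that senses amino acid shortage. DEX had raised 10 of the 31 heat shock and co-chaperone genes tested in NaCl mice, beside 9.83% of all genes. The medians in FeSO4 mice were 0.022, 0.041, 0.049 and 0.043, and each changed sign with 1 mouse left out. They came to -0.042 and -0.055 for the unfolded protein response and the hypoxia pathway without FeSO4/PBS mouse 1, and to -0.041 and -0.11 for heat shock and ATF4 genes without FeSO4/DEX mouse 1. Among lipid and carbohydrate families, exclusion held for 18 of 19 lipogenic genes, 23 of 25 genes of cholesterol synthesis and uptake and 19 of 21 glycolytic genes. Their medians were 0.036, 0.055 and -0.069, and they came to 0.15, -0.001 and 0.032 without FeSO4/PBS mouse 1. Phase II conjugation enzymes, which tag drugs and steroids for excretion, excluded it for 34 of 39, and coagulation factors, most of them secreted by hepatocytes, for 28 of 29. The 7 mitochondrially encoded genes tested had a median of 0.22 (0.06 without FeSO4/PBS mouse 1), with scores from -0.29 to 0.39 within the DEX group alone, and all 7 were bounded.

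In bile acid synthesis, Cyp7a1, its rate-limiting enzyme, had 104, 153 and 65 in PBS mice and 241, 124 and 225 in DEX mice (LFC 0.87, 0.13 to 1.61), against 6959 ± 589 in NaCl/PBS mice. Cyp8b1, the sterol 12-alpha-hydroxylase, had 3101, 2691 and 5711 in PBS and 5818, 5897 and 5803 in DEX mice, where all DEX mice were higher (LFC 0.61, 0.056 to 1.16). Hsd3b7, a later enzyme of the path, was the lowest (-0.34, -0.81 to 0.13). Cyp27a1, which DEX raised in NaCl mice (LFC 0.77), had -0.023 (-0.33 to 0.28). Cpt1a, the entry enzyme of mitochondrial fatty acid oxidation, had an LFC of 0.06 (-0.28 to 0.40). Ppara, the nuclear receptor of that pathway, had -0.24 (-0.92 to 0.43). Fgf21, the hepatokine it drives, had 433, 72.2 and 255 in PBS and 137, 182 and 34.5 in DEX mice and was not bounded (-2.51 to 0.29). Cyp4a31, an omega-hydroxylase, was the highest of that list (0.87, 0.034 to 1.71).

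The genes of ribosome assembly had LFCs mostly of 1 sign. Of 65 ribosome biogenesis genes, 58 had an LFC below 0, beside 6318 of 12872 over all genes, and the median was -0.19. All 65 excluded a 2-fold change, beside 95.3% of all well-counted genes. DEX raised 35 of them in NaCl mice (median LFC 0.41), beside 9.83% of all genes, and the responses differed at FDR 0.05 in edgeR for 22, beside 6.18%. Nop56, a core protein of box C/D particles, had 578, 516 and 524 in PBS mice and 466, 405 and 373 in DEX mice (LFC -0.38, -0.69 to -0.064), Nolc1, a nucleolar assembly factor, 1792, 1152 and 1402 in PBS and 1109.8, 1054 and 1050.0 in DEX mice (LFC -0.44, -0.80 to -0.067), and Ncl, nucleolin, an LFC of -0.31 (-0.62 to -0.012). Fbl, the fibrillarin methyltransferase, had -0.22 (-0.56 to 0.11), and Nol10 was the highest (0.15). The family median came to -0.079 without FeSO4/PBS mouse 1, whose score of 0.29 was the highest of the 6. For cytosolic ribosomal proteins the median went from -0.11 to 0.057 without that mouse, with the lowest member Rps10, a gene with processed copies, at -1.22 and -0.20 in turn. Among its abundant members, Rplp0 was at -0.17 (-0.50 to 0.16) and Rps6 at -0.19 (-0.53 to 0.14). SR and hnRNP splicing factors had a median of -0.16 with it and -0.12 without it, and 26 of 32 LFCs were below 0. Srsf1, an SR protein that selects splice sites, was lowest with 1632, 1026 and 1108 in PBS and 812, 903 and 859.7 in DEX mice (LFC -0.55, -0.95 to -0.15). Hnrnpa1, an abundant hnRNP protein, had -0.19 (-0.48 to 0.10). All 44 well-counted proteasome genes and all 33 aminoacyl-tRNA synthetases excluded a 2-fold change.

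Among growth and death regulators, p53 targets had a median of 0.13 and scores of 0.066, 0.10 and 0.012 in DEX mice and -0.092, -0.026 and -0.06 in PBS mice, which did not overlap, and the median came to 0.055 without FeSO4/PBS mouse 1 and to 0.016 without FeSO4/DEX mouse 2. Mdm2, the p53 ubiquitin ligase, had an LFC near 0 (-0.11, -0.40 to 0.17), and Polk, a translesion polymerase, the lowest (-0.55, -1.34 to 0.23). Bcl2l1, which encodes the survival protein BCL-XL, was raised by DEX from 549 ± 18.1 to 3437 ± 74.3 in NaCl mice and had 3205, 4604 and 3160.4 in FeSO4/PBS and 3372, 3360.4 and 4036 in FeSO4/DEX mice (LFC -0.027, -0.41 to 0.36). Mcl1 had -0.16 (-0.45 to 0.14) and Bcl2l11, the pro-death protein BIM, 525, 1254 and 792 in PBS and 1556, 1129.7 and 1249.7 in DEX mice (LFC 0.61, 0.0072 to 1.22). Ccnd1, cyclin D1, had 0.56 (-0.034 to 1.15).

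Among families grouped by symbol, the 294 Zfp zinc finger genes had a median of -0.086, with 15 lower and 1 higher at an unadjusted p of 0.05 (beside 2% and 1.82% of all genes), and it was -0.10 without FeSO4/PBS mouse 1. The 234 solute carriers had a median of 0.025 and the 754 unnamed lncRNA and predicted genes one of 0.012.

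Red cell markers had LFCs above 0 in DEX mice, apart from Klf1, without passing the test. The 3 erythroid markers summed to 2245 to 4387 in PBS mice and 3176 to 6959.8 in DEX mice, which overlapped. Hbb-bs, an adult beta-globin gene, had 2281, 2905 and 1427 in PBS and 2106, 4211 and 4582 in DEX mice (LFC 0.72, 0.029 to 1.41), its near-identical copy Hbb-bt an LFC of 0.76, Hba-a1, an alpha-globin gene with a near-identical copy, an LFC of 0.69, and Alas2, the erythroid heme synthesis enzyme, 0.59 (0.02 to 1.17). Klf1, the erythroid factor, had an LFC of -0.34 (-1.34 to 0.66).

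Summed levels of the other cell types overlapped between the groups. The 6 Kupffer cell markers summed to 3325 to 3929 in PBS and 2750.0 to 4496 in DEX mice. The 5 sinusoidal endothelial markers summed to 3445 to 4483 and 2668 to 4986, and the 4 stellate cell markers to 1302 to 2004 and 1389 to 1937. In the Kupffer, endothelial and cholesterol synthesis families, DEX mouse 1 had the highest and DEX mouse 2 the lowest score, so that the spread lay within the DEX group. Lymphocyte markers summed to 22.2 to 62.5 and mesothelial markers to 4.08 to 21.4 over the 6 mice. Of 5 pancreatic acinar markers, Cpa1, Prss2 and Pnlip were at 0 counts in all 6 mice and the summed level was 105 to 195 in PBS and 191 to 265 in DEX mice. Among hepatocyte genes, Alb had 0.15 (-0.19 to 0.49), Ttr 0.11 (-0.23 to 0.45) and Apoa1 0.045 (-0.31 to 0.40), between Fga, the fibrinogen alpha chain (-0.31), and Serpina1a (0.24). The pericentral list had a median of 0.21 and the periportal list one of 0.0034, with overlapping scores in both.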

How the data were processed

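Liver RNA from 12 mice was sequenced by the authors single-end on a NovaSeq instrument after TruSeq Stranded mRNA preparation. Per the methods and the submitters' processing notes, reads were checked with FastQC and mapped to mm39 with STAR 2.7.10b and GENCODE splice junctions, and STAR's gene counting made the table. The deposited values are raw counts per gene, not normalized. Which strand column was taken is not given in the sources used here, so overlapping antisense genes are uncertain, and reads of near-identical copies may be lost or split.

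Gene symbols matched 54749 of 55414 identifiers. The 6 FeSO4 libraries were fitted with edgeR 4.0.16 (filterByExpr, TMM factors from all 12 libraries, quasi-likelihood test, Benjamini-Hochberg adjustment) in R 4.3.3, without covariates. The 6 NaCl libraries were fitted in the same way, and the difference between both DEX effects was tested in a model of all 12. The 95% intervals of LFCs used the moderated standard error of that fit. DESeq2 1.42.0, the authors' tool, and limma 3.58.1 served as alternatives, as did other scalings, filters, interval levels, leaving out each mouse and the replicate number as a block. The code was tested on simulated data. No batch is given for these libraries, and p-values measure the spread between the 3 samples of a group. An exact permutation test of 3 against 3 cannot go below 0.1.

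The lists, families and defining genes were chosen with earlier results of these data known. Named were genes called by any of edgeR, DESeq2 or the 12-library model; the classic GR targets; the 5 largest rises and falls without overlap; the 5 largest NaCl rises and falls with exclusion; the 5 widest intervals among responsive genes; and each described family's extremes and defining genes, 176 in all, some of them given only in counts. Normalized counts are raw counts times the mean library size over the TMM-scaled library size. Family scores used log2(normalized count + 0.5).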

Additional observations from a re-analysis of the deposited data

Results flagged for a closer look

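The DEX response differed between FeSO4 and NaCl mice for 857 of 13857 genes at FDR 0.05, tested as an interaction in edgeR over all 12 libraries. Of the 176 genes named by rule, 41 passed, with FDRs from 1.58e-07 to 0.0476. Some naming rules took genes with a large LFC in NaCl mice and a bounded LFC in FeSO4 mice. The count of 41 is therefore partly set by the choice and is not comparable with that over all genes. Each difference below is the LFC in FeSO4 mice minus the LFC in NaCl mice.

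30 differences were below 0. Among GR targets and other genes that DEX raised in NaCl mice, they were -5.44 for Cdkn1a, -4.86 for Cyp2b10, -3.55 for Ddit4, -3.2 for Plin5, -3.09 for Rbbp8, -3.07 for Gadd45b, -2.97 for Mrap, -2.84 for Lcn2, -2.67 for Bcl2l1, -2.43 for Fkbp5, -2.2 for Tat, -1.95 for Dusp1, -1.72 for Sgk1, -1.44 for Tsc22d3, -1.1 for Cebpb, -1.08 for Mfsd2a and -0.96 for Nfkbia. For heme, iron and P450 genes they were -2.01 for Alas1, -1.6 for Flvcr2, -1.53 for Tfrc, -0.91 for Slc39a14, -0.87 for Cyp3a11 and -0.79 for Cyp27a1. For cytokine receptors and the IL-1 antagonist they were -2.23 for Il1rn, -1.75 for Il1r1 and -1.1 for Il6ra, and for nucleolar genes -1.76 for Nolc1 and -1.38 for Nop56. The values of Fam107a (-9.08) and Gm43305 (-7.64) are set against NaCl/PBS levels near 0 counts and depend on the prior count.

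11 differences were above 0. They were 3.13 for Junb, 2.92 for Tnfaip2, 2.87 for Rnf152, 2.82 for Socs3, 2.68 for Id2, 2.79 for Irs2, 1.94 for Irs1, 2.49 for Nr1d1 and 1.66 for Dbp. Il1b (4.7) is set against NaCl/DEX mice with at most 3 raw counts, and NaCl/PBS mouse 2 held most of its NaCl/PBS counts. Cyp3a41b (5.02) rests largely on FeSO4/DEX mouse 1. No group of these data had 4 or more mice, so no mouse was tested for standing apart from its group.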

How the results depend on the processing

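The count of genes passing for DEX in FeSO4 mice was 0 in both directions under limma-voom, other scalings, stricter filters, the 12-library model and robust fitting. DESeq2 gave 2 higher and 1 lower. Without a low-count filter edgeR gave 59 higher and 46 lower, in a fit that assigned every gene 1 common quasi-dispersion; with at least 10 counts over the 6 libraries, chosen after seeing the data, it gave 0. An unadjusted p gave 234 and 258. Leaving out 1 mouse gave 0 to 1 lower (Klf10, without FeSO4/PBS mouse 1). A 2-fold change was excluded for 7791 to 8304 well-counted genes when 1 mouse was left out, and for 4100 of 4237 with a mean count of at least 500. Of the genes changed by DEX in NaCl mice, 304 had it excluded with a 99% interval, 157 had a 1.5-fold change excluded, and leaving out 1 mouse gave 384 to 499. The responses differed for 1309 genes in DESeq2 and for 523 (without NaCl/PBS mouse 3) to 970 (without FeSO4/PBS mouse 1) with 1 mouse left out. It was 531 without NaCl/PBS mouse 1. The cause of these shifts was not tested.

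Same-numbered FeSO4 mice did not deviate together (correlations -0.17, -0.14 and -0.084), so the numbers were not taken as pairs. With the replicate block edgeR called 0 genes, a 2-fold change was excluded for 8193 well-counted and 466 responsive genes, and the responses differed for 729.

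Named genes gave 1739 of 1757 alternative LFCs within the spread between mice and on the same side of the threshold. That spread was taken from the same mice, so leaving out 1 of them could rarely move an LFC beyond it. The count is therefore largely set by the criterion and does not measure how stable the LFCs are. Inhbe, with an LFC of -2.15 and of -1.62 without FeSO4/PBS mouse 1, counted among the 1739. 14 moved, by which mouse was left out: without FeSO4/PBS mouse 1 besides those in the text Nqo1 (0.38), Cbr3 (0.54), Sult1e1 (1.23) and Klf1 (0.42), without FeSO4/DEX mouse 1 Cyp3a16 (-0.29), without FeSO4/DEX mouse 3 Dbp (-0.83) and without FeSO4/PBS mouse 2 Cyp26b1 (1.87). Family medians moved in 29 of 612 alternatives, among them the clock list, which came to -0.0067 without FeSO4/DEX mouse 3.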
